A study of Mus musculus with 2 samples.

Results

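The genes described here are 8 complement components and receptors, out of the 28692 genes in the deposited matrices: C1qa, C1qb and C1qc, the chains of the recognition molecule C1q, the central component C3, the alternative pathway proteins properdin (Cfp) and factor B (Cfb), and the anaphylatoxin receptors C5ar1 and C3ar1. They were taken by gene symbol, without a threshold on any measured value, and all 8 were found. Their unique molecular identifiers (UMIs, each standing for a captured transcript molecule) were summed over the cells of each of the authors' 13 clusters in each library. The cells were CD45+ leukocytes from adipose tissue (visceral, by the series title) of adult wild-type C57BL/6 mice, restricted by intravenous labelling to cells outside the blood vessels. The mice ate either chow or a ketogenic diet (KD), a diet that raises blood ketone bodies, for 1 week. Each diet was 1 library, and how many mice and which sex it pooled is not given in the sources used here. No difference between the diets therefore has a replicate check, and no test between them was made.

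Complement is a cascade of proteins that tags microbes, dying cells and immune complexes. The classical route starts when C1q binds its target, the lectin route when sugar-binding proteins do, and the alternative route amplifies deposited C3b through factor B and factor D, with properdin stabilising the convertase. All routes cleave C3, whose large fragment C3b marks the surface for uptake, while the small fragments C3a and C5a act on leukocytes through C3ar1 and C5ar1. Most plasma complement comes from the liver, but C1q is made mainly by macrophages and dendritic cells, and properdin by myeloid cells. In adipose tissue, adipocytes are a known source of factor D, also called adipsin.

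The 3 C1q genes lay side by side on chromosome 4 of GRCm38, all on the minus strand. C1qb ran from 136880129 to 136886187, C1qc from 136889804 to 136893065 and C1qa from 136895917 to 136898803, so that the whole group spanned 18675 bases with gaps of 3616 and 2851 bases. C3 lay on chromosome 17 from 57203970 to 57228136 and Cfb on the same chromosome from 34856374 to 34862518. Cfp lay on chromosome X from 20925454 to 20931555, C5ar1 on chromosome 7 from 16246743 to 16259540 and C3ar1 on chromosome 6 from 122847138 to 122856161. All 8 are protein-coding genes on the minus strand in GENCODE M21.

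Because the C1q chains followed each other across clusters, the bases before the start of C1qb and C1qc are shown, from RefSeq sequence of GRCm38.p6, written 5′ to 3′ on the minus strand. C1qb is shown over 250 bases (chr4:136886201-136886450), with capitals marking a pair of overlapping matches, on opposite strands, to an NF-kappaB pattern, GGGA and CC with any 4 bases between them. C1qc is shown over the 99 bases that lie outside annotated transcripts (chr4:136893066-136893164), with capitals marking the PU.1 letters GAGGAAG read on the other strand.
C1qb: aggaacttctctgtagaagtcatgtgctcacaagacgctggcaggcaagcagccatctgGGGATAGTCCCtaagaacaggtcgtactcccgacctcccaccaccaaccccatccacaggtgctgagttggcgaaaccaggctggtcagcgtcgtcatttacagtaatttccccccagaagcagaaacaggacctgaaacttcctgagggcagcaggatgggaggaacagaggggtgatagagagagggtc
C1qc: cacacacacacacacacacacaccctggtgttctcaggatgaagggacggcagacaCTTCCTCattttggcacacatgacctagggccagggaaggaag
Of 32851 windows of 250 bases before annotated starts, searched on both strands, 17.6% held the NF-kappaB pattern and 10.6% the PU.1 letters. The MAF letters TGCTGAC were in 3.81% of windows, the C/EBP letters TTNNGCAA in 9.56% and the interferon response pattern, GAAA repeated after any 2 bases, in 2.98%, and neither C1q window held any of these. A window was at hand for 6 of the 8 genes. The C3 window held 4 matches (3 of NF-kappaB and 1 of C/EBP), the full C1qc window a second match, of NF-kappaB, and those of Cfp, C5ar1 and C3ar1 none. A match describes the letters only and is not a binding site.

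The chow library held 4458 clustered cells and the KD library 5559, with median depths of 3469 and 3461.5 UMIs per cell over all cells of the library. Levels are given as CPM, the summed UMIs of a gene per 1000000 UMIs of the same cluster and library, and square brackets give 95% intervals that cover counting error only. Cluster 3 raised 7 of 12 macrophage and 7 of 9 monocyte markers and is called monocyte and macrophage-like. Cluster 8 was led by Retnla, Fcrls and Lyz1, had Cfp among its 10 leading genes, and was left unnamed. Both were smaller in the KD library: cluster 3 held 859 chow cells (19.3%) and 145 KD cells (2.61%), and cluster 8 held 362 (8.12%) and 47 (0.845%). The libraries shared 41 cell barcodes, and leaving them out did not change the number of members at least 2-fold apart.

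Complement transcripts lay mostly in myeloid cells. Clusters 3, 5, 6, 8 and 12 (the monocyte and macrophage-like cluster, the cDC2-like and cDC1-like dendritic cells, the Retnla-led cluster and the mature dendritic cells) held 43.3% of chow cells and 17.2% of KD cells, and 61.0% and 29.9% of the UMIs of all genes. They held 93.3% [92.9–93.7] of the 18977 chow UMIs of the 8 genes and 86.3% [85.2–87.3] of the 4123 KD UMIs. Cluster 3 alone held 66.4% of these UMIs under chow and 37.3% under KD, beside 23.8% and 3.45% of the UMIs of all genes. These shares describe where the genes were read, since the clusters were made from the same counts, and C1qb and C5ar1 are among the 10 leading genes of cluster 3.

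**Figure D1:**
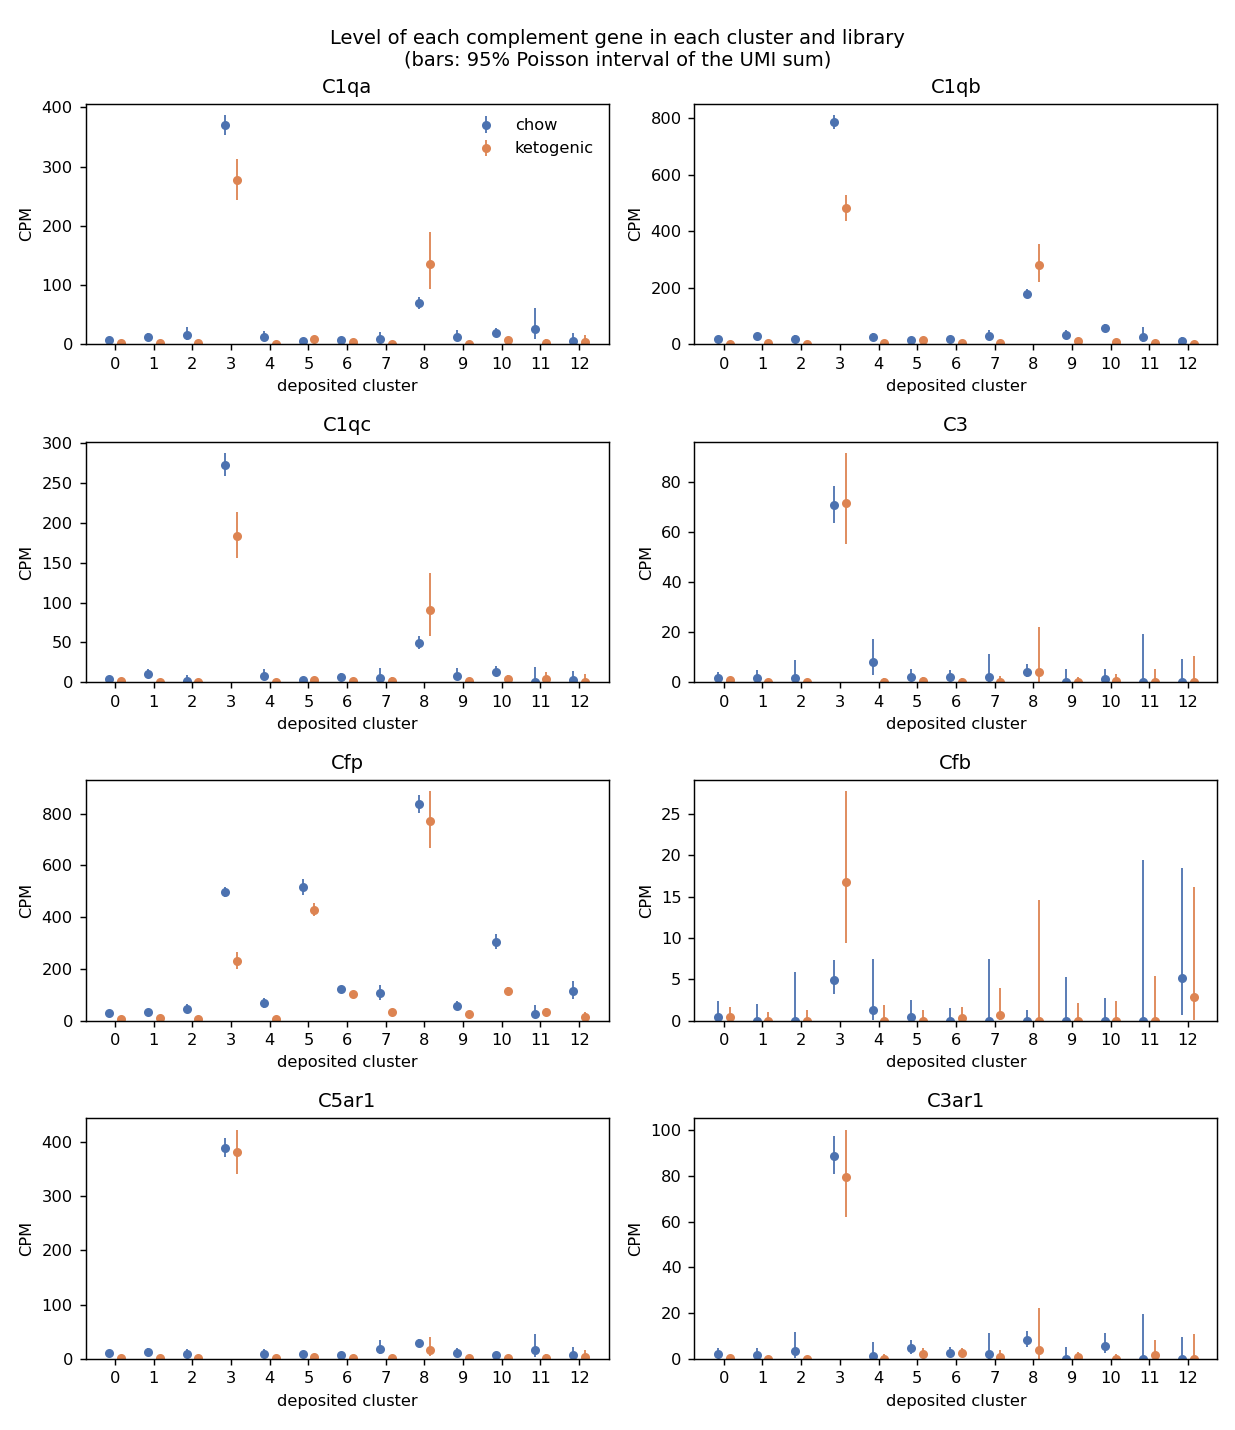
CPM of each of the 8 genes (vertical axis, own scale per gene) in each of the 13 deposited clusters (horizontal axis), with chow in blue and KD in orange, and bars giving the 95% Poisson interval of the summed UMIs. The C1q chains and the receptors peaked in cluster 3 and C3 stood near 0 elsewhere, while Cfp was also read in clusters 5, 6, 8 and 10.

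C1qa, C1qb and C1qc encode the chains that assemble into C1q, the molecule that starts the classical route and also helps macrophages take up dying cells. All 3 were highest in cluster 3, next in cluster 8, and low in the other 11 clusters. C1qb stood at 787 CPM [763–812] in cluster 3 and 179 CPM [164–195] in cluster 8 of the chow library, and between 10.3 and 56.6 CPM elsewhere. C1qa stood at 370.2 CPM [354–387] and 69.4 CPM [60.1–79.6], with 5.13 to 26.3 CPM elsewhere. C1qc stood at 272 CPM [258–287] and 49.5 CPM [41.7–58.2], with 0 to 13.1 CPM elsewhere. In each case the intervals of clusters 3 and 8 were apart from each other. They were also apart from the other clusters, except that C1qa in cluster 8 overlapped cluster 11, and many of the other clusters overlapped among themselves. The highest of those were the cycling cluster 10 for C1qb, at 56.6 CPM [44.7–70.6], and the γδ T-like cluster 11 for C1qa, where 26.3 CPM [8.55–61.5] came from 5 UMIs.

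Within cluster 3 the C1q chains were lower in the KD library. C1qb was read with 3999 UMIs under chow and 430 under KD, or 787 CPM against 481 CPM [437–529], a ratio of 0.611 [0.552–0.676]. C1qa was read with 1880 and 247 UMIs, or 370.2 and 277 CPM [243–313], a ratio of 0.747 [0.652–0.854]. C1qc was read with 1381 and 163 UMIs, or 272 and 183 CPM [156–213], a ratio of 0.671 [0.567–0.790]. All 3 intervals stayed below 1 and none of the chains reached a 2-fold difference. Fewer cells carried the transcripts: after thinning every cell to 1000 UMIs, 33.9% [30.7–37.2] of chow cells and 18.6% [12.6–25.9] of KD cells had a UMI of any chain, against 48.5% and 26.9% without thinning. For C1qb alone the thinned shares were 29.1% and 15.2%, while among NK-like cells, which should lack it, they were 1.80% and 0.377%. The median depths of cluster 3 were 5543 and 5589 UMIs, and those of the NK-like cluster 2296.5 and 3147. In the KD library a single cell held 17.0% of the C1qa UMIs, 10.2% of the C1qb UMIs and 20.9% of the C1qc UMIs of cluster 3.

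Cluster 8 as a whole went the other way, while its largest subgroup of cells did not. C1qa stood at 69.4 CPM under chow and 135 CPM [93.5–189] under KD (202 and 34 UMIs), a ratio of 1.95 [1.31–2.81]. C1qb stood at 179 and 282 CPM [220.1–355] (520 and 71 UMIs), a ratio of 1.58 [1.21–2.03]. C1qc stood at 49.5 and 91.3 CPM [57.9–137] (144 and 23 UMIs), a ratio of 1.85 [1.13–2.88]. These KD values rested on few cells: all 34 C1qa UMIs, all 23 C1qc UMIs and 46 of the 71 C1qb UMIs lay in the same 4 cells, and a single cell held 52.9%, 69.6% and 35.2% of the C1qa, C1qc and C1qb UMIs. Without the highest cell of each library, the log2 ratio moved from 0.98 to 0.13 for C1qa, from 0.67 to 0.15 for C1qb and from 0.91 to -0.61 for C1qc. Among cells with at least 3000 UMIs, the log2 ratios were 0.29, 0.17 and 0.66 in the same order. The makeup of cluster 8 also differed between the libraries when the cells of clusters 3 and 8 were clustered again without the 8 complement genes. Subcluster 1, led by Fcrls and Ccl17, held 305 of its 362 chow cells and 22 of its 47 KD cells, and subcluster 7, led by Retnla and Lyz1, held 19 and 20. In subcluster 1 the summed C1q level was 279 CPM [259–299.6] under chow and 78.8 CPM [40.7–138] under KD, from 731 and 12 UMIs, a ratio of 0.283 [0.145–0.497]. All 3 chains were lower there under KD, with log2 ratios of -2.50 for C1qa, -1.34 for C1qb and -2.31 for C1qc, which rest on 1, 10 and 1 KD UMIs. In subcluster 7 the summed level was 1186 CPM [937–1479.6] and 1685 CPM [1393–2021], a ratio of 1.42 [1.06–1.92]. There a single cell held 47.4% of the chow UMIs and a single cell 50.9% of the KD UMIs.

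**Figure D2:**
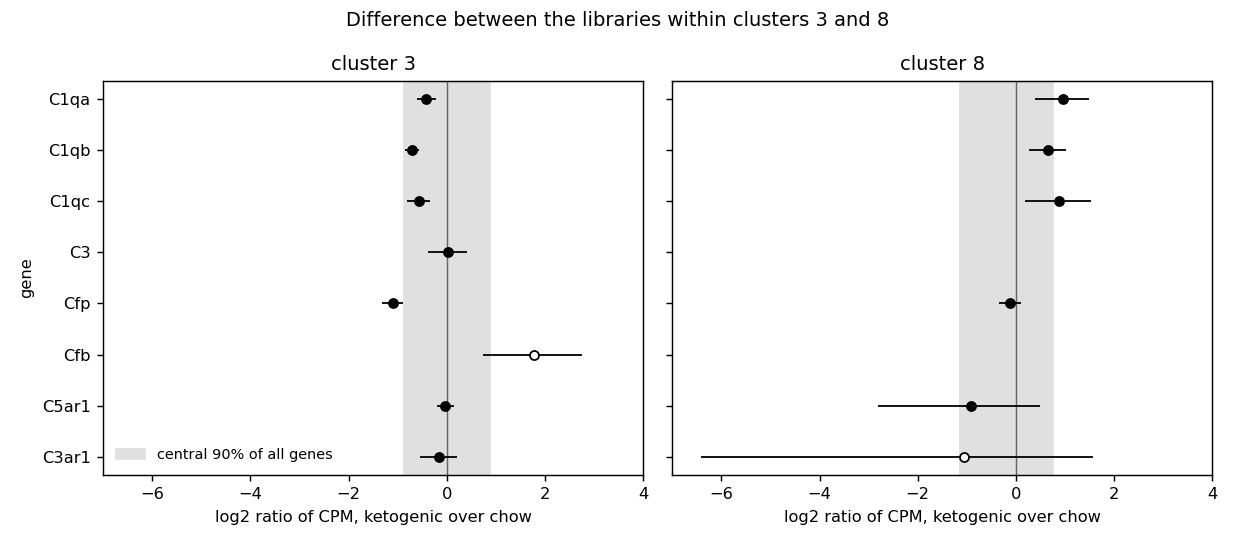
Log2 ratio of CPM, KD over chow (horizontal axis), of each gene with at least 20 UMIs in cluster 3 (left) and cluster 8 (right), with bars for the 95% counting interval, open points for genes under 50 UMIs, and grey for the central 90% of all genes at that minimum. The C1q chains lie left of 0 in cluster 3 and right of 0 in cluster 8, and Cfp lies at -1.10 in cluster 3.

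C1qb made up the largest share of the C1q UMIs in clusters 3 and 8 of both libraries. In cluster 3, C1qa, C1qb and C1qc made up 25.9%, 55.1% and 19.0% of 7260 C1q UMIs under chow. Under KD they made up 29.4% [26.3–32.6], 51.2% [47.8–54.6] and 19.4% [16.8–22.2] of 840. The chow shares of C1qa and C1qb lay just outside these KD intervals and that of C1qc inside. Without its highest cell, C1qb made up 54.2% under KD. In cluster 8 C1qb made up 60.0% [56.7–63.3] of 866 chow UMIs, above the 55.1% [53.9–56.2] of cluster 3, and 55.5% [46.4–64.3] of 128 KD UMIs. These are shares of captured transcripts, and the protein holds the chains in equal number. The chains also met in the same cells: of thinned cluster 3 cells with a C1qa UMI, 83.5% under chow and 78.8% under KD had a C1qb UMI, and 24.9% and 27.5% of the cells with any chain had all 3.

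**Figure D3:**
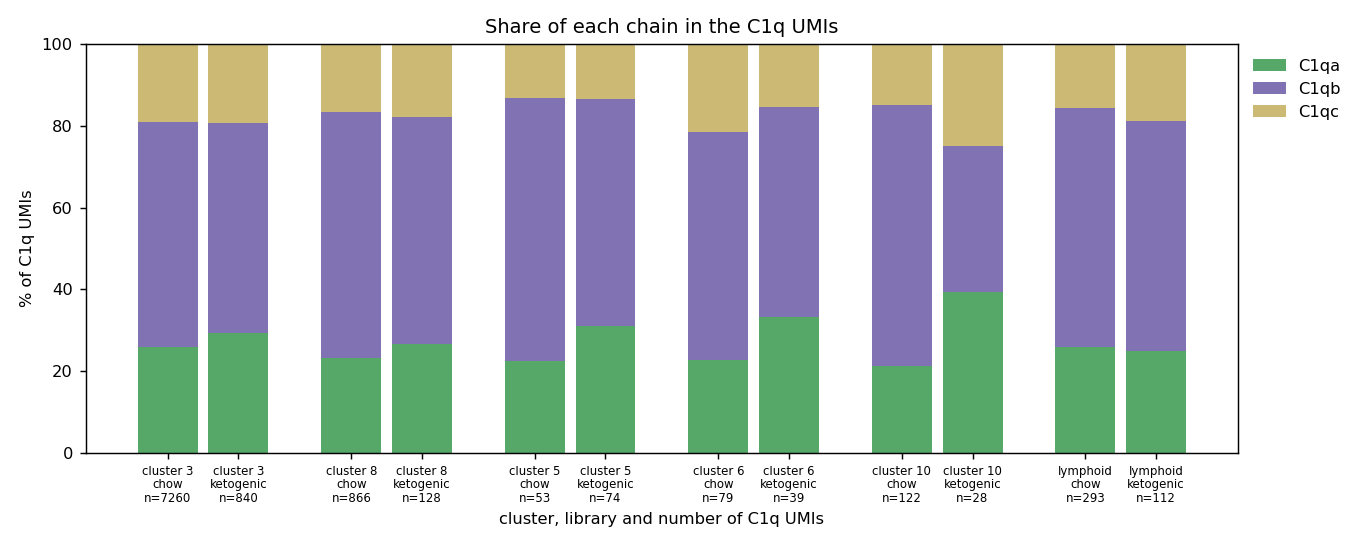
Share of C1qa (green), C1qb (purple) and C1qc (yellow) in the summed C1q UMIs (vertical axis, percent) of clusters 3, 8, 5, 6 and 10 and of the 7 lymphoid clusters together, per library, with the number of C1q UMIs under each bar. C1qb makes up more than either other chain in every bar but that of cluster 10 under KD, where C1qa stands at 39.3% and C1qb at 35.7% of only 28 UMIs.

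Cluster 3 is a mixture, and its makeup differed between the libraries. When the 1413 cells of clusters 3 and 8 were clustered again with the 8 complement genes left out of the features, 7 subclusters formed. Subcluster 2, led by Pf4, Ltc4s, Cxcl1 and Id3 beside the C1q chains, made up 37.3% [34.0–40.6] of cluster 3 cells under chow and 6.90% [3.36–12.3] under KD. Subcluster 3, led by Cd63, Lgmn, Aif1 and Apoe (the lipid carrier apolipoprotein E), made up 29.6% and 47.6% [39.2–56.0]. Subcluster 4, led by Plac8 and Ly6c2, genes of classical monocytes, made up 18.3% and 33.1% [25.5–41.4]. Under chow the summed C1q level was 2391 CPM [2322–2460.4] in subcluster 2, 1194 CPM [1138–1251] in subcluster 3 and 318 CPM [280.0–359.6] in subcluster 4. The subcluster richest in C1q thus made up less of cluster 3 under KD, and subclusters 3 and 4, with lower C1q levels, made up more.

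Within these subclusters the diets did not differ in the same direction. The summed C1q level in subcluster 3 was 1194 CPM under chow and 917 CPM [826–1015] under KD, a ratio of 0.768 [0.685–0.860]. In subcluster 4 it was 318 and 131 CPM [92.5–179], a ratio of 0.411 [0.284–0.580], with 60.5% of the 38 KD UMIs in a single cell. In subcluster 2 it was 2391 and 4175 CPM [3598–4818], a ratio of 1.75 [1.5–2.02], but only 10 KD cells were there, 5 of them had a C1q UMI and a single cell held 39.6%. In subcluster 5, which carried both S100a8 and S100a9 and the lymphocyte genes Nkg7, Ccl5 and Cd3g, it was 632 and 1424 CPM [1249–1616] over 86 and 18 cells, of which 7 KD cells had a C1q UMI and a single one held 42.7%. Whether the cells of subcluster 5 are doublets was not tested. These levels are over all cells of a subcluster. Of those, 32 chow and 5 KD cells of subcluster 5 and 6 chow cells of subcluster 2 came from cluster 8. The weighted ratios used only the cluster 3 cells of these 4 subclusters. At the same weight in both libraries, the log2 ratio was 0.81 for C1qa, 0.16 for C1qb and 0.26 for C1qc. Without subcluster 2 it was -0.09, -0.28 and -0.01, and over subclusters 3 and 4 alone, the ones with at least 20 cells in each library, -0.58, -0.51 and -0.26. The sign of the C1q chains at equal makeup thus changed with the subclusters included, of which subcluster 2 had only 10 KD cells. Leaving out subcluster 2 took out its chow cells too, so the part of its KD cells alone was not tested. Counted over all members with at least 50 UMIs, those at least 2-fold apart either way were 4 of 5 in subcluster 1 (11.7% of all genes there), 4 of 7 in subcluster 2 (30.3%), 0 of 7 in subcluster 3 (4.51%), 2 of 7 in subcluster 4 (6.85%), 4 of 5 in subcluster 5 (7.86%), 2 of 6 in subcluster 6 with its 3 KD cells (27.2%) and 0 of 3 in subcluster 7 (2.27%).

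**Figure D4:**
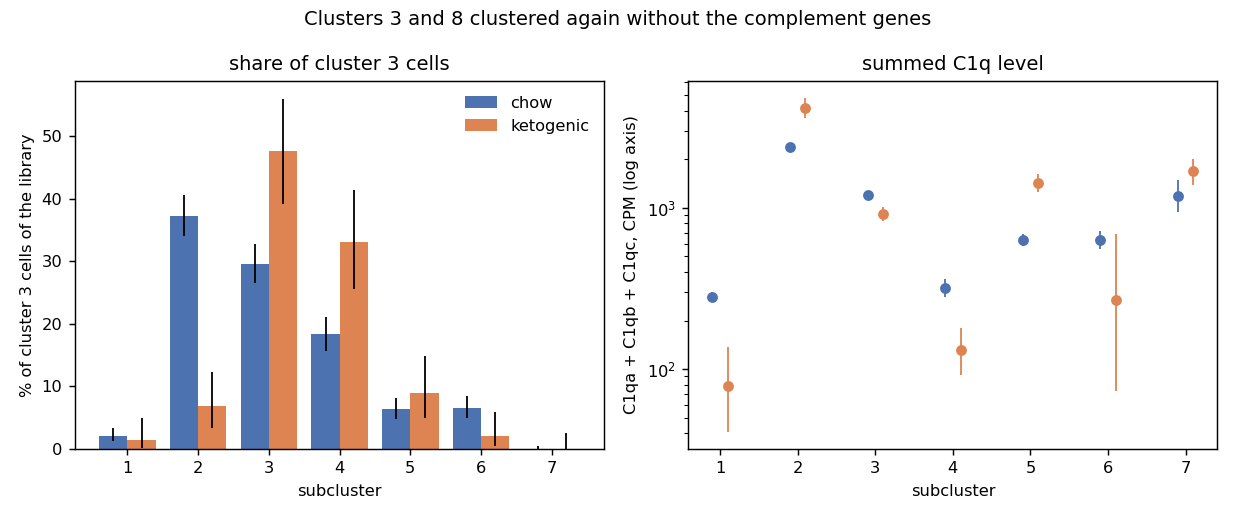
Left, share of each library's cluster 3 cells (vertical axis, percent, with 95% binomial intervals) in the 7 subclusters found without the complement genes; right, the summed CPM of C1qa, C1qb and C1qc (log axis, with 95% Poisson intervals) over all cells of each subcluster. Subcluster 2 made up 37.3% of chow and 6.90% of KD cells of cluster 3, and held the highest C1q level in both libraries.

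Cell type markers in cluster 3 also differed between the libraries. The 12 macrophage markers summed to 4319 CPM [4262–4376] under chow and 6155 CPM [5993–6319.9] under KD, with 12 and 10 of them read. Most of that sum was Apoe, at 3064 and 4668 CPM. Of the others, Fcgr1, an Fc receptor, stood at 125 and 268 CPM, Cd68 at 358 and 539.7 CPM and Csf1r at 344 and 415 CPM, higher under KD. Mrc1, a mannose receptor of tissue macrophages, stood at 176 and 44.8 CPM and Adgre1 at 159.7 and 139 CPM, lower under KD. Folr2 had 35 and 0 UMIs and Lyve1 4 and 0. The monocyte list summed to 24563 and 28382 CPM, in which Plac8 stood at 1237 and 2766 CPM and Fn1 at 1701 and 496 CPM. The 5 neutrophil markers summed to 301 CPM [286–317] and 58.2 CPM [43.5–76.4], with 5 and 4 of them read. The 5 adipocyte markers summed to 49.2 CPM [43.3–55.7] and 129 CPM [106–155], with 2 and 1 of them read, and the mesothelial list had 2 and 0 UMIs. The part of any of these in the complement values was not tested.

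Cfp encodes properdin, the stabiliser of the alternative pathway convertase, which leukocytes release. It had the widest spread over myeloid cells of the 8 genes. Under chow it was highest in cluster 8 at 837 CPM [804–871], then in the cDC2-like cluster 5 at 516 CPM [486–547] and in cluster 3 at 496 CPM [477–516], whose intervals overlapped. The cycling cluster 10 followed at 303 CPM [275–334], the cDC1-like cluster 6 at 121 CPM [107–135] and the mature dendritic cells of cluster 12 at 116 CPM [84.3–155], and the lymphoid clusters stood between 26.3 and 106 CPM. Under KD the order was cluster 8 at 770.1 CPM [666–886], cluster 5 at 428 CPM [404–454], cluster 3 at 231 CPM [200.2–264], cluster 10 at 114 CPM [97.6–131] and cluster 6 at 103 CPM [92.7–114]. The intervals of clusters 5 and 3 were thus apart under KD, and those of clusters 10 and 6 overlapped.

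Between the libraries Cfp differed most in cluster 3, among the myeloid clusters with over 100 UMIs in each library. There it was read with 2519 UMIs under chow and 206 under KD, a ratio of 0.465 [0.402–0.536], or 2.15-fold [1.86–2.49] lower. After thinning, 33.8% of chow and 17.9% of KD cells of cluster 3 had a Cfp UMI (76.5% and 57.2% unthinned), against 2.76% and 0.659% of NK-like cells. In cluster 8 the level hardly moved, with 2437 and 194 UMIs and a ratio of 0.920 [0.791–1.07]. In clusters 5 and 6 the ratios were 0.830 [0.765–0.902] and 0.855 [0.731–1]. In cluster 10 the ratio was 0.374 [0.313–0.447], and in cluster 12, from 45 and 5 UMIs, 0.125 [0.0388–0.314].

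The Cfp difference in cluster 3 was smaller at equal makeup. Within the subclusters Cfp stood at 707 CPM [670.2–746] and 268 CPM [138–468] in subcluster 2, where the KD value came from 12 UMIs. It stood at 344 CPM [314–375] and 234 CPM [189–286] in subcluster 3, and at 214 CPM [183–248] and 237 CPM [185–300.5] in subcluster 4. In subcluster 5 it stood at 594 CPM [539.7–653] and 286 CPM [211–379], from 435 and 48 UMIs, a ratio of 0.481 [0.349–0.649]. With the subclusters equally weighted the log2 ratio was -0.74, against -1.10 for cluster 3 as a whole, and it was -0.43 without subcluster 2 and -0.31 over subclusters 3 and 4 alone. In subcluster 1, which held 305 of the 362 chow and 22 of the 47 KD cells of cluster 8, Cfp stood at 840.1 CPM [805–876] and 782 CPM [647–935].

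C3 encodes the protein on which all complement routes converge. It was read almost only in cluster 3, with 360 of its 399 chow UMIs and 64 of its 72 KD UMIs. The level there was 70.9 CPM [63.7–78.6] under chow and 71.7 CPM [55.2–91.5] under KD, a ratio of 1.01 [0.762–1.32]. A difference smaller than that interval was not detectable at this depth. The highest level elsewhere was 7.96 CPM from 6 UMIs in cluster 4. Among the larger subclusters, C3 was highest under chow in the Plac8-led subcluster 4 at 155 CPM [128–184], followed by subcluster 3 at 61.8 CPM [49.6–76.0] and subcluster 2 at 36.1 CPM [28.2–45.7]. Under KD, subclusters 4 and 3 stood at 86.0 CPM [55.7–127] and 59.1 CPM [37.9–88.0], and the 10 cells of subcluster 2 had 0 UMIs. The ratio was 0.557 [0.347–0.861] in subcluster 4 and 0.957 [0.583–1.52] in subcluster 3. With 4 subclusters of cluster 3 at equal weight the log2 ratio of C3 was -0.48. It ran from -0.72 to -0.16 with a single subcluster left out. In single chow cells of cluster 3, 20.3% [11–32.8] of those with a C3 UMI after thinning also had a C1q UMI, against 34.9% [31.6–38.3] of those without. The same shares were 41.4% and 30.1% for Cfp, 37.8% and 32.3% for C5ar1 and 42.9% and 33.1% for C3ar1, each higher in the cells with the transcript. The intervals were apart for Cfp and overlapped for C3, C5ar1 and C3ar1.

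Cfb encodes factor B, which binds C3b to form the alternative convertase. It was the sparsest of the 8 genes, with 30 UMIs under chow and 20 under KD, and did not reach the minimum of 50 UMIs in any cluster. Cluster 3 held 25 of the chow UMIs, in 24 of 859 cells, and 15 of the KD UMIs, in 8 of 145 cells. Its level there was 4.92 CPM [3.19–7.27] and 16.8 CPM [9.40–27.7], a ratio of 3.41 [1.67–6.73], the only member whose interval lay above 1 in that cluster. A single KD cell held 3 of the 15 UMIs.

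C5ar1 and C3ar1 encode the G protein-coupled receptors for C5a and C3a. Both were read mostly in cluster 3, which held 90.1% of the chow and 89.9% of the KD UMIs of C5ar1 and 88.3% and 77.2% of those of C3ar1. C5ar1 stood there at 389.9 CPM [373–407] under chow and 381 CPM [341–423] under KD (1980 and 340 UMIs), a ratio of 0.977 [0.868–1.10]. C3ar1 stood at 89.0 CPM [81.0–97.6] and 79.5 CPM [62.1–100.3] (452 and 71 UMIs), a ratio of 0.893 [0.685–1.15]. Neither receptor differed beyond counting error. Cluster 8 came next under chow, with 29.9 CPM [23.9–36.9] of C5ar1 and 8.24 CPM [5.28–12.3] of C3ar1, and the other clusters stood at 7.25 to 18.1 CPM and 0 to 5.80 CPM. In cluster 8 under KD only 4 C5ar1 UMIs and 1 C3ar1 UMI were read. The share of thinned cluster 3 cells with a C5ar1 UMI was 28.6% [25.6–31.8] under chow and 22.1% [15.6–29.7] under KD (69.5% and 47.6% unthinned), against 0.967% and 0.0942% of NK-like cells, and 1 KD cell held 9.12% of the UMIs.

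The receptor level also varied by subcluster. C5ar1 under chow was alike in subclusters 2, 3 and 4, at 403 CPM [375–432], 419 CPM [386–453] and 398 CPM [356–445]. Under KD it was 286 CPM [236–343] in subcluster 3, a ratio of 0.683 [0.555–0.834], and 547 CPM [465–639] in subcluster 4, a ratio of 1.37 [1.13–1.67]. In subcluster 2 the ratio was 0.333 [0.122–0.727], from 6 KD UMIs, and in subcluster 5 it was 2.02 [1.44–2.79], with 55.4% of the KD UMIs in a single cell. The ratio was thus below 1 in subclusters 2 and 3 and above 1 in subclusters 4 and 5. In subcluster 4 a single KD cell held 18.2% of the UMIs. Of the cells of subcluster 5, 32 of 86 under chow and 5 of 18 under KD came from cluster 8. How far the higher values rest on single cells was not tested. In subcluster 4, where C5ar1 was higher under KD, the summed C1q level was lower. C3ar1 in subclusters 3 and 4 had ratios of 0.887 [0.608–1.27] and 1.22 [0.731–1.99], which both spanned 1.

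Members at least 2-fold apart between the libraries were counted beside the same count over all genes. Of the 7 members with at least 50 UMIs over both libraries there, 1 (Cfp) was at least 2-fold lower under KD and 0 were higher, beside 3.76% lower and 3.27% higher among the 6840 genes at that minimum (7.03% either way). The median log2 ratio of those 7 was -0.42 and that of all genes 0.04. In cluster 8, 0 of 5 members were past 2-fold, beside 8.57% of 4981 genes, with medians of 0.67 and -0.04. Over all pairs of a member and a cluster at the minimum, 12 of 26 were at least 2-fold lower and 0 higher, beside 2.32% lower and 3.32% higher of 66224 gene and cluster pairs (5.63% either way). Of these 12, 7 were all the pairs in lymphoid clusters, where 1.52% of 34804 pairs were lower. Many pairs passed the minimum mainly through their chow UMIs, so the counts describe the members and support no direction.

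Reads of the 8 genes in lymphoid clusters are set beside their level in the whole library, which includes these clusters. Clusters 3, 5, 6, 8 and 12 held 61.0% of all UMIs under chow and 29.9% under KD, so lymphoid cells weigh more in the KD mean. The percentages below thus set a part against the whole and are not alike between the diets. Over the 7 lymphoid clusters together (ILC2-like, NK-like, T-like, Treg-like, B and plasma-like, γδ T-like and the unnamed cluster 4), C1qb stood at 24.6 CPM [21.1–28.6] under chow and 3.81 CPM [2.93–4.87] under KD. That is 10.8% and 15.5% of the mean level over all clustered cells of the same library, 227 and 24.5 CPM. Cfp stood at 44.3 CPM [39.5–49.6] and 12.7 CPM [11–14.5], or 13.2% and 14.0% of the library mean. C5ar1 stood at 11.4 CPM [9–14.2] and 1.21 CPM [0.739–1.87], or 11.1% and 8.28%. Lyz2, a myeloid transcript that lymphoid cells lack, stood at 744 and 118 CPM, or 10.8% and 8.65%. Apoe stood at 100.2 and 54.0 CPM, or 12.5% and 25.2%, and Cfb, from 2 and 3 UMIs, at 20.5% and 23.5%. In these clusters C1qb made up 58.4% [52.5–64.1] of 293 chow C1q UMIs and 56.2% [46.6–65.6] of 112 KD C1q UMIs. The shares of the members other than Cfb were 7.20% to 13.2% under chow, around that of Lyz2, and 8.28% to 15.5% under KD, where the C1q chains and Cfp, at 12.3% to 15.5%, stood above Lyz2 and below Apoe. Whether lymphoid cells made any of these transcripts was not tested.

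**Figure D5:**
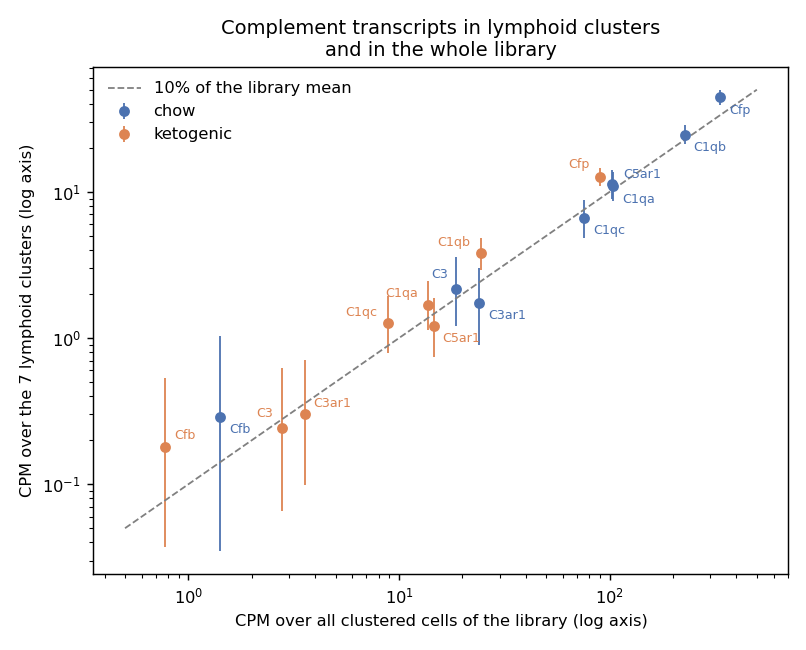
CPM of each gene summed over the 7 lymphoid clusters (vertical log axis, with 95% Poisson intervals) against its CPM over all clustered cells of the same library (horizontal log axis), with chow in blue, KD in orange and a dashed line at 10% of the library mean. The members other than Cfb stand at 7.20% to 15.5% of the library mean, and Cfb, with 2 and 3 UMIs, at 20.5% and 23.5%.

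Over whole libraries, in which clusters 3 and 8 made up a smaller share of the KD cells, the differences were larger than within cluster 3 for all members but Cfb. C1qb stood at 227 CPM [221–234] over all clustered chow cells and 24.5 CPM [22.7–26.5] over KD cells, 9.25-fold [8.52–10.1] lower. C5ar1 was 7.04-fold [6.31–7.87] lower, C1qa 7.52-fold [6.72–8.43], C1qc 8.50-fold [7.40–9.80], C3 6.71-fold [5.21–8.75] and C3ar1 6.74-fold [5.39–8.51]. Cfp, which the dendritic cells also carried, was 3.71-fold [3.54–3.89] lower, and Cfb 1.82-fold [0.999–3.38]. With every cluster given the same share of cells in both libraries, the log2 ratios came to -0.45 for C1qa, -0.72 for C1qb, -0.55 for C1qc, -0.25 for C3, -0.70 for Cfp, -0.28 for C5ar1 and -0.36 for C3ar1, and 0.91 for Cfb. The median of the 8 was -0.40 with equal shares and -2.78 without, and that of all 11380 genes 0.05 and 0.13.

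Across the 26 sums of a cluster and a library, the members fell into patterns, given here as Pearson's r of log2(CPM + 20), with no test, since the sums of a library share their depth and their background reads. The C1q chains followed each other at 0.971 to 0.979, and C3, C5ar1 and C3ar1 followed each other at 0.969 to 0.981, with 0.825 to 0.909 between the former and the latter. For Cfp, r with the other members ran from 0.208 with Cfb to 0.693 with C1qb. Among 9119 genes with at least 200 UMIs, the 3 most like C1qa were C1qb (0.979), Pla2g7 (0.973) and C1qc (0.972). Those most like C1qb were C1qa, Clec4e (0.977) and C1qc, and those most like C1qc were Pla2g7 (0.982), C1qa and Cd300lb (0.972). Pla2g7 encodes a secreted phospholipase that breaks down platelet-activating factor, and Clec4e the receptor Mincle. Csf3r, the receptor for granulocyte colony-stimulating factor, was among the 3 most like C3 (0.977) and C3ar1 (0.982), each of which had the other at 0.981, and both had Gm5150 as the remaining gene. Among the genes most like C5ar1 were Clec4d (0.979) and Gm5150 (0.978). Cfp was most like Clec4b1 (0.971), Tep1 (0.969) and Tnip3 (0.956), and the sparse Cfb most like Rsad2 (0.907), Adap2os (0.893) and Ifi204 (0.876).

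The rest of the cascade was hardly read in these cells. Of 46 other complement genes, 45 were in the matrices, 18 had 0 UMIs in both libraries together and 11 reached 50 UMIs. Few UMIs came from the proteases that act with C1q: C1ra, a C1r protease gene, had 10 and 3 UMIs, and C1rb, C1s1 and C1s2 had 0. The lectin route genes Masp1, Masp2, Mbl1 and Mbl2 had 0 UMIs, as did C6, C7, C8a and C8b of the membrane attack complex. Cfd, the factor D gene, had 3 and 6 UMIs. A gene with 0 UMIs here may still be expressed below the depth of the libraries. A count of 0 allows up to 3 UMIs at 95% when only an upper limit is taken, which differs from the intervals in square brackets.

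The other complement genes that were read lay in other cell types than C1q. C2, the classical pathway protease next to C4, had 28 and 103 UMIs, of which the ILC2-like cluster 0 held 18 and 78, at 7.57 CPM [4.49–12] and 17.9 CPM [14.1–22.3]. Clu, or clusterin, was read in the mature dendritic cells of cluster 12 at 277 CPM [227–335] under chow and 358 CPM [298–427] under KD. Cd55, a membrane inhibitor, was read in the B and plasma-like cluster at 52.4 CPM [36.9–72.2] and 58.6 CPM [47.9–71.1], and in NK-like cells at 31.7 CPM [24.0–41.1] and 41.7 CPM [35.3–49.0]. Cr2, the B cell receptor for C3 fragments, had 4 and 39 UMIs in the B and plasma-like cluster.

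The further receptors differed in where they were read. C5ar2, the other C5a receptor, stood in cluster 3 at 22.2 CPM [18.3–26.8] under chow and 25.8 CPM under KD, and in ILC2-like cells at 16 CPM [11.3–21.9] and 3.44 CPM [1.93–5.67]. Itgam, the alpha chain of complement receptor CR3, stood in cluster 3 at 219 CPM [206–232] and 129.9 CPM and in cluster 8 at 282 CPM [263–302] and 206 CPM [154–271]. Under KD the cDC2-like cluster 5 held 41.8% of the Itgam UMIs and cluster 3 16.4%. Cd93, first described as a C1q receptor, stood in cluster 3 at 68.9 CPM [61.9–76.5] and 51.5 CPM, with 75.1% and 24.5% of its UMIs there. Itgax, the alpha chain of CR4, stood at 30.9 CPM [26.3–36.1] in cluster 3 under chow and higher in NK-like cells, at 133 CPM [117–151]. Itgb2, the beta chain of both receptors, stood at 232 CPM [219–246] and 316 CPM [290.5–343] in the same clusters. In cluster 3, 7 of these 45 genes reached the minimum and 0 of the 7 differed at least 2-fold, beside 7.03% of all genes there, with a median log2 ratio of -0.01. In cluster 8, 0 of 4 did, beside 8.57%. Vsig4, the complement receptor CRIg of some resident macrophages, had 0 UMIs in both libraries.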

How the data were processed

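Libraries followed a 10x Genomics protocol, per the labels. Values are the deposited UMI counts of each gene in each cell, as whole numbers without scaling by the authors. Cell Ranger, Seurat and the mm10 build appear in the submitters' processing notes, and their versions and settings are not given in the sources used here. From the authors' cluster file only the cluster number (resolution 0.5) was taken, and the t-SNE scores deposited in it were not used. The 87 chow and 55 KD cells outside that file all exceeded 5% mitochondrial UMIs.

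The members and gene lists were chosen with earlier results of these data known. UMIs were summed per cluster and library with Python 3.11.15 and scipy 1.17.1. Intervals, at 95%, are exact Poisson for sums, exact conditional for ratios and exact binomial (Clopper-Pearson) for shares. The log2 ratios add 0.5 to each count, and calls past 2-fold need 50 UMIs in the cluster, summed over the libraries. Shares of cells use the hypergeometric expectation at 1000 UMIs per cell, which left out no cell. A cluster took a name from its raised markers (2-fold over all other cells in CPM plus 20), by thresholds set after seeing the data, and cluster 4 was left unnamed by hand since natural killer receptors led it. Clusters 3 and 8 were clustered again with scanpy 1.11.5 (2000 variable genes, 20 components, 15 neighbours, resolution 0.5). Named genes are the 8 members, the other complement genes with at least 50 UMIs (those under it appear only as counts) and, for each member, the 3 genes of most similar pattern, of which some are not reported here. Positions come from GENCODE M21, in which 98.8% of the gene IDs were found. TMM factors came from edgeR 4.0.16, for scaling only. No doublet caller was run, and the labels do not say whether doublets were removed. The scripts were tested on simulated counts.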

Additional observations from a re-analysis of the deposited data

Results flagged for a closer look

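The C1q chains differed in direction between clusters 3 and 8 taken whole. C1qa was lower under KD in cluster 3 (ratio 0.747) and higher in cluster 8 (ratio 1.95). C1qb had ratios of 0.611 and 1.58, and C1qc of 0.671 and 1.85. With 1 library per diet this difference between clusters was not tested. In cluster 8 the KD values of all 3 genes came mostly from the same 4 cells, and without the highest cell of each library C1qc was lower there too. The cells of cluster 8 also fell into different subclusters by library, 305 of 362 chow and 22 of 47 KD cells in subcluster 1 and 19 and 20 in subcluster 7. In subcluster 1 all 3 chains were lower under KD, as in cluster 3, with log2 ratios of -2.50 for C1qa, -1.34 for C1qb and -2.31 for C1qc from 1, 10 and 1 KD UMIs. In subcluster 7 they were 0.64, 0.34 and 0.78 in the same order.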

How the results depend on the processing

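Of 175 values recomputed under another setting, 116 stayed within their error or count limit, 55 moved and 4 reversed a difference that lay beyond counting error, and the cause was not tested unless given. The count of members at least 2-fold apart in cluster 3 was 1 of 7, and 2 of 8 with a minimum of 20 UMIs or none, where Cfb entered, and 2 at 1.5-fold. It was 4, 4, 0, 2, 4, 2 and 0 in subclusters 1 to 7. Over all pairs it was 12 of 26, 26 of 44 at a minimum of 20 UMIs and 3 of 15 at 100. In cluster 3 the log2 ratios with subclusters at equal weight were 0.81, 0.16 and 0.26 for C1qa, C1qb and C1qc (changed in sign), -0.48 for C3 (0.02 before), -0.74 for Cfp and -0.26 for C5ar1. Without the highest cell of each library C1qa and C1qc came to -0.65 and -0.88 in cluster 3. In cluster 8 C1qa, C1qb and C1qc came to 0.13, 0.15 and -0.61 without that cell, to 1.94, 1.41 and 1.62 as a mean over cells, and C1qa and C1qb to 0.29 and 0.17 among cells with at least 3000 UMIs. C1qb made up 66.7% of the C1q UMIs of cluster 8 under KD without its highest cell.

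Over all clusters, in the order C1qa, C1qb, C1qc, C3, Cfp, Cfb, C5ar1 and C3ar1, the log2 ratios without weights were -2.91, -3.21, -3.09, -2.74, -1.89, -0.85, -2.81 and -2.75, so that Cfb changed sign. With the KD library's shares of cells they were -0.97, -1.22, -0.95, -0.91, -0.84, -0.11, -0.87 and -0.81, where lymphoid cells weigh more. The myeloid share of the members' UMIs was 94.8% and 87.4% under chow and KD among cells with at least 3000 UMIs and 92.1% with the libraries pooled. Cells with a UMI of any member made up 71.1% and 51.0% of cluster 3 and 63.0% and 59.6% of cluster 8 at 1000 UMIs per cell. The shares were 96.7%, 84.8%, 99.2% and 91.5% without thinning and 86.2%, 66.5%, 84.8% and 81.1% at 2000 UMIs. The share of C1q cells with all 3 chains was 48.9% and 51.3% without thinning. Subtracting 10% of each cluster's UMIs as free RNA, at the library's mean profile, and leaving out the 1% deepest cells or the shared barcodes changed no direction past counting error in clusters 3 and 8. TMM scaling was run only for the counts past 2-fold, which stayed at 1 and 12.

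No paired analysis was possible because each diet has 1 library and no label pairs them. The alternatives with cells of at least 3000 UMIs within a cluster, shared barcodes, deepest cells, equal subcluster weights and 1.5-fold were chosen after seeing the data. Counts of 50 UMIs over both libraries leave wide intervals, and under KD the 145 and 47 cells of clusters 3 and 8 let single cells decide a value.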
